A study of Mus musculus with 6 samples.

Results

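The genes described here encode the nuclear-encoded parts of the mitochondrial oxidative phosphorylation machinery. They were chosen by symbol alone: every gene with a probe set of 1 annotated symbol beginning with Nduf, Uqcr, Cox4 to Cox8 or Atp5, together with Sdha, Sdhb, Sdhc and Sdhd. This gave 90 of the 18194 genes that have such a probe set, covered by 179 probe sets, and where a gene had several, the one brightest on average over the 6 arrays stood for it. Of these 90 genes, 82 encode subunits or isoforms and 8, Ndufaf1 to Ndufaf8, encode assembly factors of complex I that do not stay in the finished enzyme, so those 8 are given apart. A further 8 matching symbols, Ndufa11 and Ndufs6 among them, were found only on probe sets shared with other genes and were not used here.

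The arrays measured messenger RNA in 32D cells, a mouse myeloid line that grows in interleukin-3. The construct labelled C2-MiR-9, for miR-9 and miR-9*, was present in 3 samples, and the empty vector, labelled A1-EV, in the other 3. Both arms grew in RPMI with fetal calf serum, antibiotics and 10 ng/ml interleukin-3, and no other treatment was given. The labels call the replicates independent and number them 1 to 3 in each arm, without saying whether a number stands for a culture, a transduction or a day, and they do not say whether each line was a clone or a pool. The p-values below therefore measure the spread between these samples, which may be technical.

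Oxidative phosphorylation turns the reducing power of NADH and succinate into ATP at the inner mitochondrial membrane. Complex I takes electrons from NADH and complex II from succinate, both pass them through ubiquinone to complex III, cytochrome c carries them on to complex IV, and oxygen receives them there. Complexes I, III and IV pump protons, and ATP synthase, complex V, lets the protons flow back to make ATP. Each of these enzymes except complex II also holds subunits made from mitochondrial DNA, which lie outside the symbol rule. In blood-forming cells, red cell and granulocyte precursors differ in how far they rely on this route or on glycolysis.

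The microRNA precursor that was expressed yields a strand from each of its arms. They are shown because they are what separates the arms of the study, with the seed, bases 2 to 8, in capitals, as RefSeq gives them for mouse (GRCm38.p6, where both strands are encoded at 3 loci, on chromosomes 3, 7 and 13). The 2 strands have different seeds.
mmu-miR-9-5p: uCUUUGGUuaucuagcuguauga
mmu-miR-9-3p: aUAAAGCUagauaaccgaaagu

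In miR-9/9* cells the messages of the respiratory chain and of ATP synthase lay close to their level in empty vector cells. Of the 90 genes, 84 lay above the filter on dim probe sets, and their log2 fold changes, taken on log2(signal + 16), ran from -0.25 for Atp5md to 0.30 for Ndufb1. That range corresponds to between 0.841 and 1.23 times the empty vector level, and 75 of the 84 genes lay between 0.9 and 1.1 times. The median was -0.02, against 0.01 over all 10201 genes tested. By more than 0.5 on the log2 scale moved 0 of the 84 genes, against 2.48% of all genes. Among 733 other genes with a mean log2 signal between the quartiles of the 84, 1.23% moved that far. Their median was -0.01.

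In limma without a block 0 of the 84 genes were called higher and 0 lower at an adjusted p under 0.05, and 0 had an unadjusted p under 0.05. Over all genes, 0.0196% were called higher and 0.0392% lower (0.0588% in all), and 4.62% had an unadjusted p under 0.05. When limma was given the replicate number as a block, 0 of the 84 genes were again called, with 4 at an unadjusted p under 0.05, whereas 1.51% of all genes were then called higher and 1.44% lower (2.95% in all), and 17.0% had an unadjusted p under 0.05. The 3 arrays of the arms were separated, with no overlap, for 0 of the 84 genes, against 9.82% of all genes (5.1% higher and 4.73% lower in miR-9/9* cells). The signs were unequal, with 32 of the 84 genes above 0 (38.1%, against 52.4% of all genes). That balance rested on the scaling of the arrays, since 43 genes were above 0 and the median was 0.0035 after quantile normalization, whereas 25 were above 0 and the median was -0.04 with each array centred on its median. With array weights 49 were above 0 and the median was 0.02. In bulk RNA, fewer cells of a type and less RNA per cell cannot be told apart.

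The intervals show what size of change these arrays leave possible. The 95% interval of the fold change, from limma without a block, reached a median of 0.32 to either side on the log2 scale, and for 80 of the 84 genes it lay wholly within 1.5-fold in both directions. The exceptions were Ndufb1, Ndufaf2, Cox6a2 and Atp5md. With the replicate number as a block the median reach was 0.18, and Atp5md was the only gene whose interval passed 1.5-fold.

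**Figure D1:**
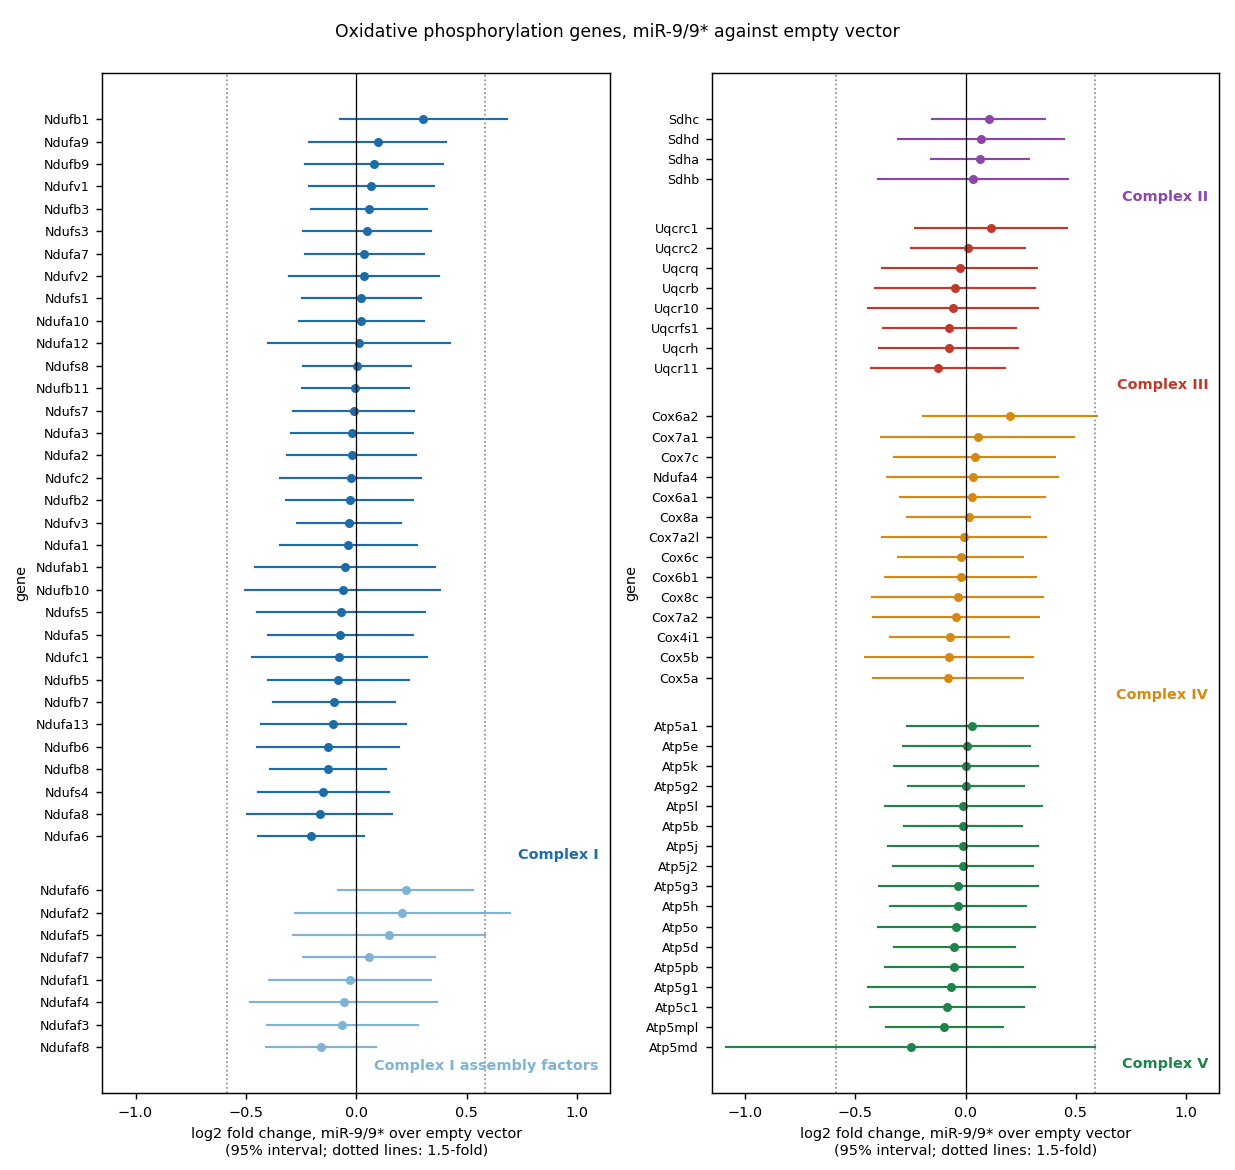
Log2 fold change of miR-9/9* over empty vector for the 84 genes above the filter (points), with the 95% interval from limma without a block (lines, n = 3 arrays per arm), grouped by complex and ordered by size; dotted lines mark 1.5-fold. Every interval includes 0, and Atp5md has the widest.

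Complex I, the NADH dehydrogenase, was represented by 33 subunit genes above the filter, 12 with a log2 fold change above 0 and 21 below. The median log2 fold change was -0.03, with a range from -0.20 for Ndufa6 to 0.30 for Ndufb1. The N module, which oxidises NADH, had a median of 0.01 over 7 genes, and the Q module, which hands the electrons to ubiquinone, a median of 0.0032 over 7 genes. The other 19 subunits, mostly of the membrane arm, had a median of -0.05, with 4 above 0.

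Among the catalytic subunits, Ndufv1, which binds NADH and the flavin, had signals of 877, 761 and 892 on the miR-9/9* arrays, against 853, 696 and 867 on the empty vector arrays (numbers 1, 2 and 3). Ndufs1, the largest iron-sulphur subunit of the module, had 591, 587 and 627 in miR-9/9* cells, against 575, 531 and 678 in empty vector cells. Ndufs7, which holds the last iron-sulphur cluster before ubiquinone, had 973, 835 and 942 in miR-9/9* cells, against 951, 813 and 1014 in empty vector cells. The arms overlapped for all 3 genes, and their log2 fold changes were 0.07, 0.02 and -0.01.

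Ndufb1, a small accessory subunit of the membrane arm, had the largest positive log2 fold change of the 84 genes. Its signals were 532, 429 and 616 in miR-9/9* cells, against 372, 387 and 508 in empty vector cells. It was higher in miR-9/9* cells in 3 of 3 pairs, but the arms overlapped, since miR-9/9* number 2 lay below empty vector number 3. The log2 fold change was 0.30 (SE 0.167, 95% interval from -0.08 to 0.68), and limma did not call it without the block (adjusted p = 0.999) or with it (adjusted p = 0.0865). It was called with the block only when replicate number 2 was left out (limma adjusted p = 0.0382).

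Ndufa6, an accessory subunit counted here with the Q module, had the most negative fold change in complex I. Its signals were 962, 1006 and 1117 in miR-9/9* cells, against 1117, 1220.1 and 1220.2 in empty vector cells. Here 3 of 3 pairs were lower in miR-9/9* cells, and the arms met at their edges, with miR-9/9* number 3 just above empty vector number 1. The log2 fold change was -0.20 (95% interval from -0.44 to 0.04, and from -0.36 to -0.05 with the block), which limma did not call (adjusted p = 0.163 with the block). Ndufa8, an accessory subunit with cysteine pairs that is imported into the intermembrane space, followed at -0.17, with 1 of 3 pairs higher.

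The 8 assembly factors of complex I gave a median log2 fold change of 0.01, with 4 genes above 0 and 4 below. Ndufaf6, a factor needed early in assembly, had 109, 112 and 117 in miR-9/9* cells, against 87.8, 86.5 and 109 in empty vector cells, a log2 fold change of 0.22. Ndufaf2, which sits on the intermediate before the N module is added, had 146, 125 and 160 in miR-9/9* cells, against 128, 84.2 and 165 in empty vector cells, a log2 fold change of 0.21. Ndufaf8, which works with Ndufaf5, had 442, 476 and 521 in miR-9/9* cells, against 539, 506 and 565 in empty vector cells, a log2 fold change of -0.16. Limma called none of these 3 genes, with adjusted p of 0.288 for Ndufaf6 and Ndufaf8 and 0.393 for Ndufaf2 with the block. A second probe set of Ndufaf8 stood at 0.02.

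Complex II, succinate dehydrogenase, is the one complex that also belongs to the tricarboxylic acid cycle and that is built from nuclear genes alone. All 4 of its genes had log2 fold changes above 0, from 0.03 for Sdhb to 0.10 for Sdhc, and none was called. Sdha, the flavoprotein that oxidises succinate, had 950.1, 1033 and 985 in miR-9/9* cells, against 960, 902 and 975 in empty vector cells. Sdhb, the iron-sulphur subunit, had 1141, 988 and 1360 in miR-9/9* cells, against 1118, 885 and 1449 in empty vector cells. The membrane anchors Sdhc and Sdhd were higher in 3 of 3 pairs, by log2 fold changes of 0.10 and 0.07, but their arms overlapped too. A second probe set of Sdha stood at -0.12 and one of Sdhd at -0.13, so the shared direction did not hold across probe sets.

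Complex III, which passes electrons from ubiquinol to cytochrome c, had 8 genes above the filter, 2 with a log2 fold change above 0 and 6 below, with a median of -0.05. Uqcrc1, a core protein on the matrix side, had 1055, 1254 and 1353 in miR-9/9* cells, against 931, 1148 and 1311 in empty vector cells, and was higher in 3 of 3 pairs (log2 fold change 0.12, 95% interval from -0.23 to 0.46). Its partner Uqcrc2 stood at 0.01. Uqcrfs1, the Rieske iron-sulphur protein, had 824, 866 and 991 in miR-9/9* cells, against 862, 870 and 1102 in empty vector cells, lower in 3 of 3 pairs with a log2 fold change of -0.07. The arms overlapped for these genes. Limma called none of the 8, and their smallest adjusted p with the block was 0.436.

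Complex IV, cytochrome c oxidase, has subunits that exist as isoforms made in different tissues, and the arrays showed which of them gave signal in 32D cells. Cox4i1, the common form of subunit 4, had 3212, 3010.3 and 3180.0 in miR-9/9* cells, against 3087, 3077 and 3761 in empty vector cells. Cox4i2, the form known from lung and from low oxygen, was under the filter by its mean, at 5.02, 14.1 and 6.86 in miR-9/9* cells, against 15.3, 16.8 and 1.90 in empty vector cells. Ndufa4, named for complex I but now counted as a subunit of complex IV, had 2282, 1966 and 2370 in miR-9/9* cells, against 2021, 1773 and 2774 in empty vector cells. Its paralogue Ndufa4l2, known as a gene induced by low oxygen, reached no more than 7.22 on any array.

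The forms of the heart and skeletal muscle were dim. Cox8b reached no more than 5.67 on any array, and Cox7a1 lay just above the filter, at 8.34, 23.4 and 16.4 in miR-9/9* cells, against 13.3, 13.2 and 16.4 in empty vector cells. Cox6a2 had 47.2, 32.0 and 29.2 in miR-9/9* cells, against 24.4, 33.2 and 29.3 in empty vector cells. Its log2 fold change of 0.20 rested on miR-9/9* number 1, and it was -0.02 with replicate number 1 left out and the block in place. The forms known from testis, Cox6b2 and Cox7b2, lay below the filter, and another testis form, Cox8c, had 61.3, 61.4 and 71.6 in miR-9/9* cells, against 86.1, 53.7 and 63.5 in empty vector cells. Signals of different probe sets are not on a common scale, so these values place each isoform against the filter and not against its partner.

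**Figure D2:**
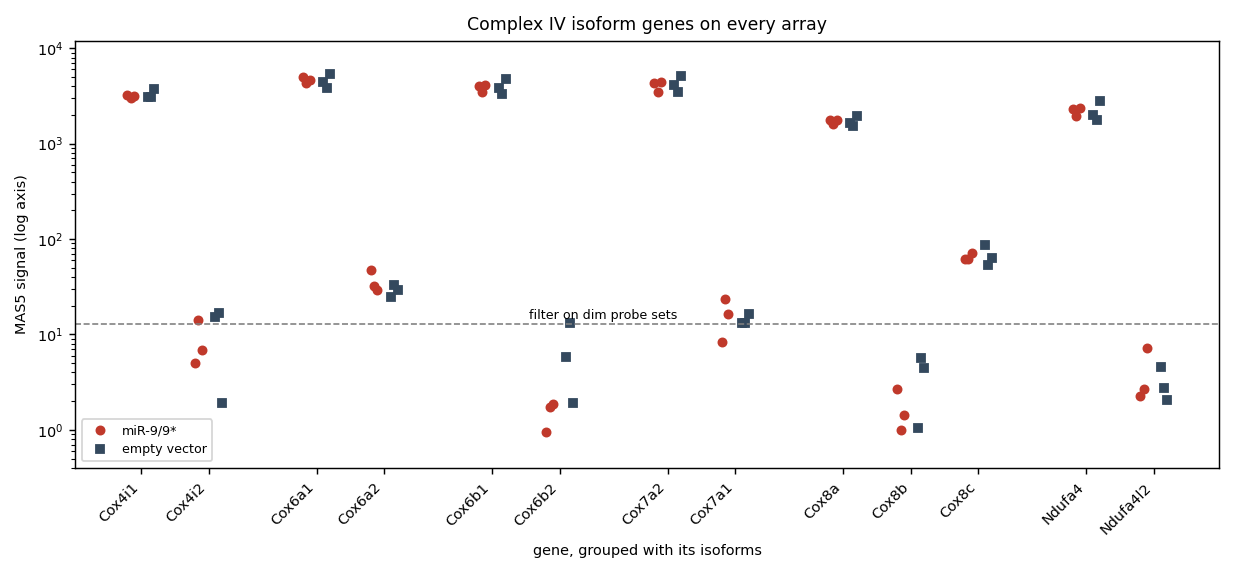
MAS5 signal (log axis) of complex IV isoform genes on each array, miR-9/9* (circles) left of empty vector (squares), 3 arrays per arm; the dashed line is the filter. The arms overlap for Cox4i1, Cox6a1, Cox6b1, Cox7a2, Cox8a and Ndufa4, and Cox4i2, Cox6b2, Cox8b and Ndufa4l2 lie below the filter by their mean.

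The common forms Cox6a1, Cox6b1, Cox7a2 and Cox8a had log2 fold changes of 0.03, -0.02, -0.04 and 0.01. Cox5a and Cox5b, nuclear-encoded subunits on the matrix side, stood at -0.08 each. Over the 14 complex IV genes above the filter, 6 were above 0 and 8 below, with a median of -0.01, and limma called none of them with or without the block (smallest adjusted p = 0.601 with the block).

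ATP synthase, complex V, had 17 genes above the filter, 4 with a log2 fold change above 0 and 13 below, and a median of -0.03. Apart from Atp5md they lay between -0.10 and 0.03. Atp5b, the catalytic beta subunit, had 3240.5, 3211 and 3437 in miR-9/9* cells, against 3173, 3063 and 3761 in empty vector cells. Atp5a1, the alpha subunit, stood at 0.03, and Atp5c1, the central stalk that turns within them, at -0.08. The 3 genes that encode the same ring subunit c, Atp5g1, Atp5g2 and Atp5g3, stood at -0.07, 0.001 and -0.03.

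Atp5md, a small subunit of the membrane part that helps hold ATP synthase dimers together, was the most variable of the 84 genes. Its signals were 689, 461 and 1498 in miR-9/9* cells, against 920.3, 759 and 1162 in empty vector cells. Numbers 1 and 2 were lower in miR-9/9* cells and number 3 was higher, and miR-9/9* cells held both the lowest and the highest array. The log2 fold change was -0.25 (SE 0.366, 95% interval from -1.08 to 0.58), and limma did not call it (adjusted p = 0.492 with the block). Without replicate number 3 of both arms it was -0.55 and was called with the block (limma adjusted p = 0.00516), and without miR-9/9* number 3 alone it was -0.71 with no call (limma adjusted p = 0.737). The gene has 1 probe set on the array, so no second measurement bears on it.

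Several probe sets of a gene offered a check on the direction. Of the 84 genes, 48 had more than 1 probe set above the filter, and in 24 of these the probe sets differed in direction while in 24 they pointed the same way. The 24 with mixed directions were Atp5c1, Atp5j2, Atp5k, Cox5b, Cox6a1, Cox7a2l, Cox8a, Ndufa7, Ndufa12, Ndufab1, Ndufaf4, Ndufaf8, Ndufb2, Ndufb6, Ndufb8, Ndufb11, Ndufc2, Ndufs4, Ndufs7, Ndufs8, Sdha, Sdhd, Uqcr10 and Uqcrq. The widest gap was 0.45 on the log2 scale, in Uqcrq, a small subunit of complex III, whose probe sets ran from -0.42 to 0.03. Both ends came from dim probe sets, with signals of 13.3 to 37.3 and of 15.7 to 20.8, and its brightest probe set stood at -0.03. Some other mixed directions also rested on dim probe sets, as in Atp5c1 (10.4 to 51.1) and Ndufb8 (27.1 to 44.6). When the probe sets were tested as separate features, limma called 0 of the 161 above the filter with or without the block. Without the block 1 of them had an unadjusted p under 0.05 (0.621%, against 3.77% of all probe sets tested), and with it 9 had, 4 higher and 5 lower (5.59%, against 15.1%).

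The 6 arrays differed more by replicate number than by arm. In limma's F test of the replicate number, with the arm in the model, 28 of the 84 genes passed an adjusted p under 0.05 (33.3%), against 24.3% of all genes tested. At an unadjusted p under 0.05 it was 57 genes (67.9%), against 40.8% of all genes. Of the 28 genes, 27 were higher in number 3 than in the mean of numbers 1 and 2. Over all genes the balance differed, since 1371 of the 2480 that passed were lower in number 3. The share of 33.3% was close to that of other genes of similar signal. Among 733 other genes whose mean log2 signal lay between the quartiles of the 84, 250 passed (34.1%). Of those 250 genes, 50 were lower in number 3, so most genes of similar signal that passed were higher too. The count depended on single arrays and numbers. Without replicate number 1 of both arms it was 29 (34.5%, against 24.1% of all genes). Without number 2 it was 11 (13.1%, against 17.2%), and without number 3 it was 10 (11.9%, against 7.78%). Leaving out 1 array leaves only 1 array for its number. The counts without single arrays are therefore not listed here and enter only the range given below with the processing.

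The direction was more uniform than the share. Number 3 was the highest array within each arm for 64 of the 84 genes (76.2%), against 21.1% of all genes and 47.2% of the other genes of similar signal. Number 2 was the lowest within each arm for 66 genes (78.6%, against 19.8% of all genes). The full order 2, 1, 3 held in both arms for 53 genes, with no share over all genes to set beside it. The median difference of number 3 from the mean of the others was 0.24 on the log2 scale for the 84 genes, -0.05 for all genes and 0.13 for the other genes of similar signal.

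**Figure D3:**
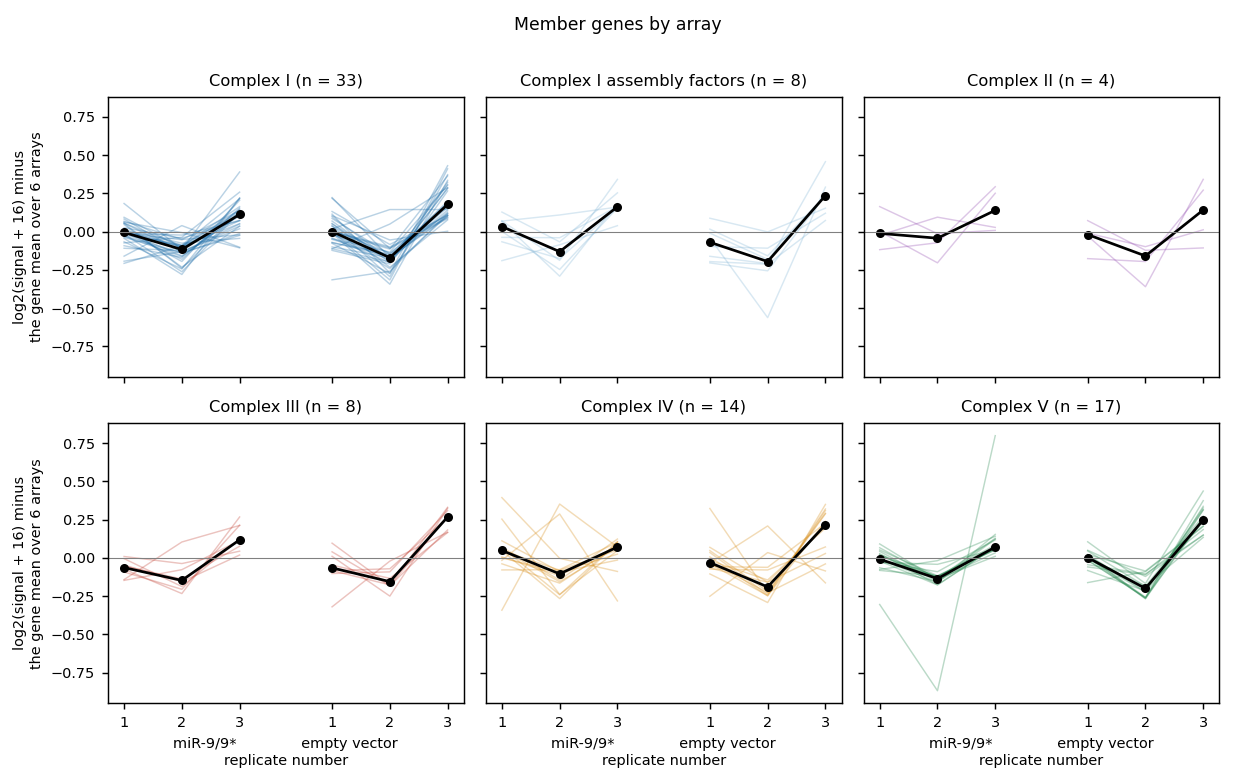
Each gene's log2(signal + 16) minus its mean over the 6 arrays, by replicate number within miR-9/9* (left of each panel) and empty vector (right); thin lines join the arrays of 1 gene, black points and lines are medians per complex. In all 6 groups the median is lowest in number 2 and highest in number 3 in both arms; the steep line in complex V is Atp5md.

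The arrays themselves differed in the same sense. Number 3 had the lowest median signal in each arm, 12.9 in miR-9/9* and 12.0 in empty vector cells, against 14.0 to 15.2 on the other arrays. It also had the highest 99th percentile, 2750.1 in miR-9/9* and 3029 in empty vector cells, against 2479 to 2613 on the others. After quantile normalization, which makes these distributions equal, the median difference of number 3 fell to 0.09 for the 84 genes, number 3 was highest in both arms for 33 genes (39.3%, against 25.4% of all genes), and 17 genes passed the test (20.2%, against 21.2% of all genes). The other genes of similar signal then had a median difference of -0.0027, with number 3 highest in both arms for 27.7%. With each array centred on its median the values moved the other way: the median difference was 0.34 for the 84 genes, number 3 was highest in both arms for 70 (83.3%, against 31.2% of all genes), and 40 genes passed (47.6%, against 24.4% of all genes). Without a variance trend limma passed 0 of the 84 genes, against 8.64% of all genes. The part of the arrays' scale in these differences was not tested further.

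The genes with the smallest p for the replicate number were Ndufb10, Sdhb, Ndufs5 and Sdhd. Ndufb10, a membrane arm subunit of complex I, had 915, 807 and 1119 in miR-9/9* cells, against 958, 768 and 1280 in empty vector cells (limma F test, adjusted p = 0.00628). Ndufs5, a subunit on the intermembrane side of complex I, had 828, 701 and 998 in miR-9/9* cells, against 846, 748 and 1062 in empty vector cells (adjusted p = 0.00733, limma). Sdhd had 788, 813 and 1053 in miR-9/9* cells, against 756, 746 and 1037 in empty vector cells (adjusted p = 0.00840, limma). In Ndufb10, Sdhb and Ndufs5 the order 2, 1, 3 held in both arms, whereas in Sdhd numbers 1 and 2 lay close together.

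Cox7a2l, which tethers complexes III and IV in supercomplexes, ran the other way. Its signals were 1319, 1631 and 1095 in miR-9/9* cells, against 1303, 1545 and 1190.0 in empty vector cells, so number 2 was highest and number 3 lowest in both arms. It was the only one of the 28 genes that passed with a lower level in number 3 (limma F test, adjusted p = 0.0141). Its other 2 probe sets were also highest in number 2 in both arms. Number 3 was lowest in only 1 arm in each of them, miR-9/9* in 1 and empty vector in the other. Sdhc, Ndufv3 and Cox6a2 were the other genes with a lower mean level in number 3 than in numbers 1 and 2, and none of them passed; they are named after their values were seen. Uqcrc1 had its lowest array in number 1 and not in number 2 (limma F test, adjusted p = 0.017).

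**Figure D4:**
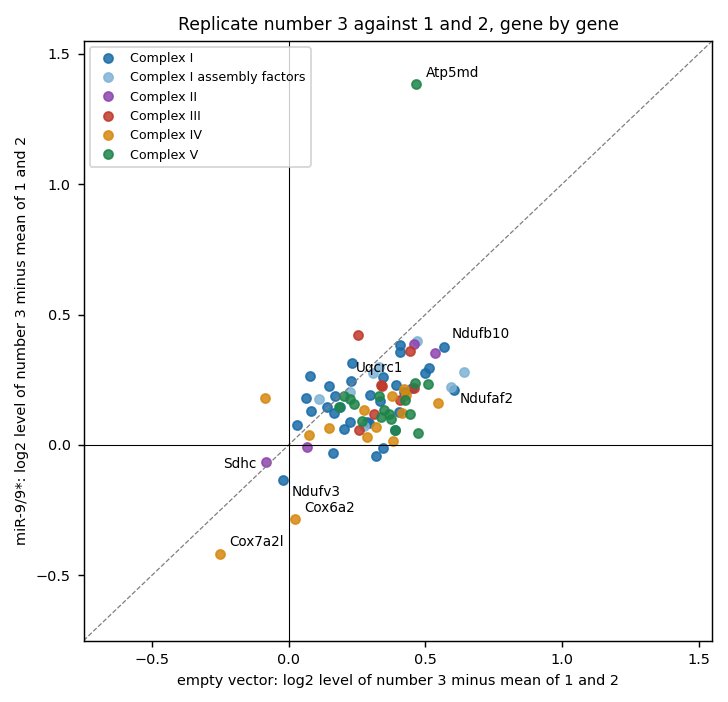
Difference of number 3 from the mean of numbers 1 and 2 on the log2(signal + 16) scale, in miR-9/9* (vertical axis) and in empty vector cells (horizontal axis), 1 point per gene, coloured by complex; the dashed line marks equal differences. Most genes are above 0 in both arms, Cox7a2l, Sdhc and Ndufv3 are below 0 in both, and Atp5md stands apart at 1.38 in miR-9/9* and 0.47 in empty vector cells.

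The direction of the difference between arms varied with the replicate number. In number 2, 61 of the 84 genes were higher in miR-9/9* cells (72.6%, against 52.1% of all genes), and the median difference was 0.06. In number 1, 50 were higher (59.5%, against 51.0% of all genes), with a median of 0.02. In number 3 only 19 were higher (22.6%, against 52.6% of all genes), with a median of -0.11. Of the 84 genes, 10 were higher in every pair (11.9%, against 21.0% of all genes) and 11 lower (13.1%, against 18% of all genes). Leaving out single arrays moved the median of the 84 genes between -0.13, without empty vector number 2, and 0.08, without empty vector number 3.

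The upstream sequences of the 4 genes with the smallest p for the replicate number are shown as examples. NRF1 and ETS family factors such as GABP are textbook regulators of nuclear genes for the respiratory chain. Whether they have a part in the differences between numbers was not tested. Each is the stretch of 250 bases before the gene's start, 5′ to 3′ on the gene's strand, from RefSeq (GRCm38.p6), with matches on either strand to the NRF1 motif (GCGC, any base, then TGCGC), the ETS core CCGGAAG or the YY1 motif AAGATGGCG in capitals. Ndufb10 lies at chr17:24724424-24724673 on the minus strand, Sdhb at chr4:140961021-140961270 on the plus strand, Ndufs5 at chr4:123718187-123718436 on the minus strand and Sdhd at chr9:50603850-50604099 on the minus strand.
Ndufb10: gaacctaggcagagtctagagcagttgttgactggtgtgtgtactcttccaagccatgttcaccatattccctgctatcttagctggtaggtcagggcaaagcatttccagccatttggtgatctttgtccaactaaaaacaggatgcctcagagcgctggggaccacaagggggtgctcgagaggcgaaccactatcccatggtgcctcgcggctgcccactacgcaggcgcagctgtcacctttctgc
Sdhb: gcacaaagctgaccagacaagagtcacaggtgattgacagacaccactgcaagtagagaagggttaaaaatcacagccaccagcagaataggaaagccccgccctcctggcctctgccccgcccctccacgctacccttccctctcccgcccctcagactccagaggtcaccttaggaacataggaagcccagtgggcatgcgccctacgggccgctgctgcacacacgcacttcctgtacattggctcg
Ndufs5: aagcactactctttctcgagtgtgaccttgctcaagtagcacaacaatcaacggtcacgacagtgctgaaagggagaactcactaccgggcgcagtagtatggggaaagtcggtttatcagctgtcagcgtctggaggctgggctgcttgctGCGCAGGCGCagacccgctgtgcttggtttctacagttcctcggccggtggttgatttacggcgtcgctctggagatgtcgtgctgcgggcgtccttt
Sdhd: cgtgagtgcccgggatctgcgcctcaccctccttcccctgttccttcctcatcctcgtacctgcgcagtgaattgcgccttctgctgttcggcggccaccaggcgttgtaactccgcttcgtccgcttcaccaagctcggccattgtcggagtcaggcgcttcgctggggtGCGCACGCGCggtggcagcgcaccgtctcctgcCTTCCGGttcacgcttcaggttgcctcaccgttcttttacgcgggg

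Ndufs5 held 1 match to the NRF1 motif, from 98 to 89 bases before the start. Sdhd held an NRF1 match from 79 to 70 bases before the start and an ETS core from 46 to 40 bases before it, without overlap. Ndufb10 and Sdhb held none of the 3 motifs in this window. Of the 90 genes, 74 had a promoter in the table, and 12 of them held the NRF1 motif (16.2%), against 4.23% of the 27025 genes in the whole table. The ETS core was found for 14 (18.9%, against 7.83%) and the YY1 motif for 1 (1.35%, against 0.71%). For comparison, CCAAT was found for 32 (43.2%, against 37.5%) and TATAAA for 7 (9.46%, against 14.3%). The genes of the whole table were not matched to the members for expression or base content. A match is a run of letters and says nothing of binding in these cells.

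Other mitochondrial genes were read from lists of the carriers, the assembly factors outside the symbol rule, the transcription machinery, the tricarboxylic acid cycle, mitochondrial ribosomal proteins, protein import and antioxidant defence. Without the block limma called 0 of their 172 genes above the filter, against 0.0588% of all genes. An unadjusted p under 0.05 was found for 1 of them (0.581%, against 4.62% of all genes). With the block it called 1 of the 172, against 2.95% of all genes, and 19 had an unadjusted p under 0.05 (11%, against 17% of all genes). The list medians lay between -0.03, for the tricarboxylic acid cycle and pyruvate dehydrogenase (17 genes, 5 above 0), and 0.03, for antioxidant defence (8 genes, 4 above 0). The called gene was Mrpl54, a protein of the large mitochondrial ribosomal subunit, among 76 ribosomal protein genes with a median of -0.02. It had 180.0, 208 and 231 in miR-9/9* cells, against 277, 261 and 351 in empty vector cells, with no overlap between the arms. Its log2 fold change was -0.48 (limma adjusted p = 0.0166 with the block and 0.754 without it).

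Other members of these lists were not called. Gabpb1, the beta partner of GABP, had 73.0, 58.6 and 101 in miR-9/9* cells, against 93.0, 92.0 and 123 in empty vector cells (log2 fold change -0.36). Tfb2m, a transcription factor of mitochondrial DNA, stood at 0.20. Among the carriers, Atpif1, the inhibitor of ATP synthase, stood at 0.14, and the ADP/ATP carrier Slc25a4 at -0.17. Of the assembly factors, Cox15, which makes haem a for complex IV, stood at -0.22, and Ttc19, a complex III factor, at 0.27. Suclg1 and Pdhx of the tricarboxylic acid cycle and pyruvate dehydrogenase list stood at -0.14 and -0.18. Timm10 and Timm44 of the import machinery stood at 0.21 and -0.23, and Sod1 and Gpx4 of antioxidant defence at -0.22 and -0.14. The arms did not overlap for Atpif1, Cox15, Ttc19, Timm10 and Sod1, and they overlapped for the others named. These genes were named for having the smallest p in their lists, so a lack of overlap partly follows from that choice. Over all genes, the arms did not overlap for 9.82%. Among ribosomal protein genes, 45 of 76 passed the F test of the replicate number (59.2%, against 24.3% of all genes), with number 3 highest in both arms for 62.

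**Figure D5:**
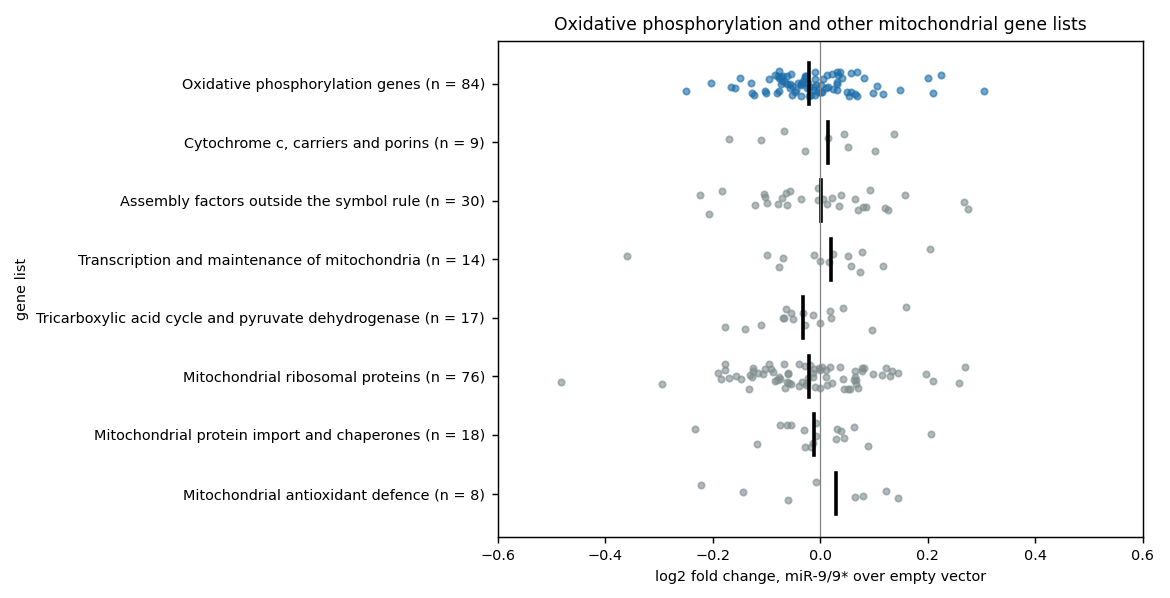
Log2 fold change of miR-9/9* over empty vector for the oxidative phosphorylation genes (top row) and 7 other mitochondrial lists, 1 point per gene above the filter, with the list median as a black bar; points are spread vertically for legibility. All medians lie between -0.03 and 0.03, and the lowest point is Mrpl54 at -0.48.

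Marker genes of blood cell types were read as well. Of 15 myeloid and progenitor markers with a probe set, 12 lay above the filter, against 3 of 8 lymphoid markers. Within each list, the summed signal of the myeloid and progenitor markers ran from 5727 to 10442 in miR-9/9* cells and from 7480.4 to 9817 in empty vector cells. The late neutrophil markers summed to between 259 and 2679 in miR-9/9* cells and between 1049.7 and 3969 in empty vector cells. The F test of the replicate number was passed by 6 of 7 late neutrophil markers, against 24.3% of all genes. It was also passed by 6 of 12 myeloid and progenitor, 4 of 7 erythroid, 5 of 6 megakaryocyte and 3 of 3 eosinophil markers. In the remaining lists, 4 of 5 mast cell and basophil, 4 of 7 monocyte and macrophage and 1 of 3 lymphoid markers passed. Without the block, limma called 1 marker in all 8 lists, a monocyte and macrophage gene that was higher in miR-9/9* cells. With the block, under which 2.95% of all genes were called, it called lower 4 of 7 late neutrophil and 1 of 12 myeloid and progenitor markers. It then called higher 3 of 7 erythroid, 4 of 6 megakaryocyte, 2 of 3 eosinophil and 1 of 7 monocyte and macrophage markers, and 0 of 5 mast cell and 0 of 3 lymphoid markers in either direction. Whether the makeup of the cultures has a part in the differences between numbers was not tested.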

How the data were processed

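The deposited values are MAS5 signal intensities on a linear scale, per the submitters' processing notes, which give no version. Per the labels' protocols, biotinylated cRNA came from Trizol-extracted total RNA. Every array has a trimmed mean of 100, leaving out 2% at each end. No detection calls were used here. Of 45101 probe sets, 34958 carry 1 symbol in a 2016 platform annotation, 932 several and 9211 none. Of those with 1 symbol, 34754 matched RefSeq (GRCm38.p6) by Entrez ID, with 0 symbols changed.

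Signals were taken as log2(signal + 16), which understates changes of dim genes, without further normalization. Genes with a mean below 4.86, the median of all probe sets, were left out. The arms were compared over 10201 genes with limma 3.58.1 in R 4.3.3 (variance trend, two-sided, Benjamini-Hochberg over all genes, threshold 0.05). The main fit has no block, and the replicate number as a block was an alternative. Whether numbers pair the samples was checked first: within each number, the 2 arrays' departures from the mean of their arm had correlations of 0.492, 0.617 and 0.683, so the numbers were taken to pair them, from the data and not the labels. The replicate number was tested by limma's F test. Scripts were tested on simulated data.

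Named genes are called members, the 4 highest and 4 lowest fold changes, core and isoform members, those with probe sets of mixed direction and the 4 with the smallest p for replicate number; from other lists, called members or the 2 with the smallest p. The members and lists were chosen with earlier results of these data known. The alternatives tried changed the pseudocount, the filter, the scaling, limma's variance model, the array weights or the probe set rule, or left out arrays or numbers.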

Additional observations from a re-analysis of the deposited data

How the results depend on the processing

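With the replicate number as a block limma called 0 of the 84 oxidative phosphorylation genes under all the settings run except when a replicate number was left out of both arms: 1 higher (Ndufb1) without number 2 and 1 lower (Atp5md) without number 3. Without the block it called 0 under every setting, with at most 3 at an unadjusted p under 0.05. In the settings without the block that tested 10201 genes, between 303 and 986 of them had an unadjusted p under 0.05. The median of the 84 genes ran from -0.13 (without empty vector number 2) to 0.084 (without empty vector number 3) when single arrays were left out. For the 52 genes among the 84 that the naming rule covers, 1548 of 1554 values under 30 alternatives kept their side of the threshold and moved by less than the spread. That count says little of how firm the values are. The filter, the variance trend, robust eBayes and the block leave a fold change as it is, and none of these genes was called to begin with. Uncalled values changed sign in 183 cases, in 45 of the 52 genes. Ndufb8 stood at -0.13, and at 0.04 with the mean of its probe sets.

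Over all genes limma called 6 without the block. It called 2 with log2(signal + 1), 0 with no filter (893 at an unadjusted p under 0.05), 3 with no variance trend, 1 with probe sets as units and 26 with array weights, and from 0 to 7 without single arrays. With the replicate block it called 301, and with the block it called 283 with log2(signal + 1), 295 with log2(signal + 64), 67 with no filter, 265 with the stricter filter, 275 after quantile normalization, 269 with centred arrays, 38 with no variance trend, 310 with robust eBayes, 187 with the mean of probe sets, 362 with probe sets as units and 393 with array weights, and 168, 339 and 364 without replicate numbers 1, 2 and 3. In the mitochondrial ribosomal protein list it called 1 gene with the replicate block and 0 without it; the block changed no other call of a mitochondrial gene named in the report. Among the oxidative phosphorylation genes, 28 differed by replicate number, against 8 with no filter, 34 of 81 with the stricter filter, 17 after quantile normalization, 40 with centred arrays, 0 with no variance trend, 30 with robust eBayes, 28 with either other pseudocount, and from 10 to 57 without single arrays or numbers. The upper end of that range came from leaving out 1 array, which leaves only 1 array for its number, so it carries little weight. Leaving out arrays or numbers in the test of the replicate number, and in the other lists, was chosen after seeing the data. The causes were not tested. With 3 arrays per arm, signals near the filter limit what can be read for the dim isoforms.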

Other observations

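One probe set carries the symbol ND5, a complex I subunit encoded by mitochondrial DNA and so outside the symbol rule. Its signals were 3494, 3169 and 2902 in miR-9/9* cells, against 3366, 2852 and 3191 in empty vector cells. The arms overlapped, and the log2 fold change was 0.02 (95% interval from -0.25 to 0.30, limma adjusted p = 0.999). Number 3 was lowest in miR-9/9* cells and number 2 in empty vector cells, and the F test of the replicate number was not passed (limma adjusted p = 0.324).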
